A study of Homo sapiens with 4 samples.

Results

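Aminoacyl-tRNA synthetases join each amino acid to its own tRNA, the step that fixes the genetic code before translation. Of the 16174 genes in the deposited table, 38 protein-coding genes were named for such an enzyme: those with a single-letter amino acid code before ARS, together with EPRS1, FARSA and FARSB. By the ending of the name, 21 encode cytosolic enzymes (names ending in 1, FARSA, FARSB and TARS3) and 17 encode mitochondrial enzymes (names ending in 2). The scaffold proteins AIMP1, AIMP2 and EEF1E1 carry no synthetase activity and were kept apart.

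The cells were H9, a long-established human embryonic stem cell line kept in the primed state, and the values come from reads of their poly(A) RNA, taken as amplified cDNA on a nanopore sequencer. All cells carried the PB-TetO-AIO-dCas9-BFP-KRAB vector, a doxycycline-inducible dCas9 joined to the KRAB repressor domain, and all were given doxycycline. One arm had 4 pooled guides against the long non-coding RNA gene SNHG26, and the other had control non-targeting guides. Cells were transfected and selected with puromycin before induction, and the labels name no clone. Each arm was harvested once after 2 days and once after 3 days, so there were 4 libraries, 2 per arm, and none was given without doxycycline. The labels do not say that the libraries came from separate experiments, so p-values measure the spread between these libraries, which may be technical. The libraries of an arm also differ in day, so the spread behind each guide p-value holds the day difference. Likewise, the spread behind each day p-value holds the difference between the arms. SNHG26 itself (chr7:22853869-22913785) was listed at 0 and 0.933 TPM with its guides and at 2.98 and 4.03 TPM with control guides, on day 2 and day 3 in turn.

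Every level is in TPM, a unit that sets reads in proportion to length and brings each library to one total. The length listed in the deposited table is the whole genomic span, with introns. Taken as the divisor, it gave whole reads for 20.8% to 21.4% of the values above 0 in each library. For the other values its use is inferred. One read on 10 kb was worth 0.653 to 0.803 TPM, and the libraries held at most 947338 to 1220270 reads on listed genes. The 38 genes together took 0.0579% to 0.0644% of the listed TPM and at most 2036 to 2486 reads per library. Of the 9 primed pluripotency markers looked for, 7 exceeded 1 TPM, and their list summed to 1434 to 1601 TPM with SNHG26 guides and 1461 to 1622 TPM with control guides, with ZIC2 at 0. Only 2 of the 6 mesendoderm markers, 1 of the 5 trophectoderm or amnion markers and 0 of the 3 neuroectoderm markers were listed. Those listed summed to at most 1.98 TPM per list in any library, with EOMES at 0. The markers not listed cannot be judged. The fibroblast list summed to 66.3 TPM in both libraries with SNHG26 guides and 65.1 to 96.3 TPM with control guides. Nearly all of that was 1 gene, THY1, at 54.4 to 84.4 TPM. COL1A1 and COL1A2 lay between 2.98 and 7.72 TPM and DCN had no value, so the sum does not by itself show fibroblasts. Its part in the results was not tested. In such bulk samples fewer cells of a type and less RNA per cell cannot be told apart.

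Most amino acids have one nuclear gene for the cytosolic enzyme and another for the enzyme that is imported into mitochondria, where it serves the tRNAs made from mitochondrial DNA. GARS1 and KARS1 are exceptions, since each supplies both compartments from one gene. Several cytosolic synthetases sit together in the multisynthetase complex, held by AIMP1, AIMP2 and EEF1E1. The enzymes fall into class I and class II by the fold of the catalytic domain. In stem cells, as in other dividing cells, they are widely expressed, and many cytosolic members are known targets of ATF4, the transcription factor of the amino acid response.

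The cytosolic genes carried most of the signal, and threonyl-tRNA synthetase led them. TARS1 (chr5:33440696-33468091) stood at 116 and 107 TPM with SNHG26 guides and at 114 and 106 TPM with control guides, on day 2 and day 3 in turn, as do all values given in this order below. Both day 2 libraries lay above both day 3 libraries, and the arms overlapped. Among the protein-coding genes with a mean above 0 TPM its mean of 111 TPM was at percentile 94.9. QARS1 (chr3:49095932-49105130), the glutaminyl enzyme, followed at 84.0, 98.1, 61.0 and 74.2 TPM, with both libraries of the SNHG26 guides above both controls. KARS1 (chr16:75627474-75648643), the lysyl enzyme of both compartments, had 52.0, 55.7, 49.3 and 53.9 TPM, so its libraries spread by little. Its processed pseudogene KARS1P1 was listed at 4.16 and 4.58 TPM on day 2 and at 0 on day 3, and how reads were split between the copies is not given in the sources used here.

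MARS1 (chr12:57475445-57517569), which charges methionine for initiation and elongation, had 41.9, 54.5, 56.1 and 40.1 TPM, and neither the arms nor the days stood apart. NARS1 (chr18:57600656-57622213), the asparaginyl enzyme, had 45.8, 33.8, 44.2 and 36.7 TPM, with day 2 above day 3 in both arms. SARS1 (chr1:109213918-109238182), which charges serine, had 24.9, 34.0, 23.8 and 24.5 TPM. In SARS1 the day 3 library with SNHG26 guides stood above the other libraries. FARSA (chr19:12922479-12934037), the alpha subunit of the phenylalanyl enzyme, had 20.96, 34.2, 20.95 and 15.1 TPM, so its arms differed on day 3 and were nearly equal on day 2. The eighth by mean level was the only mitochondrial gene among them, SARS2 (chr19:38915266-38930763), at 25.7, 18.3, 9.69 and 31.9 TPM, with the 2 control libraries at its ends.

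**Figure D1:**
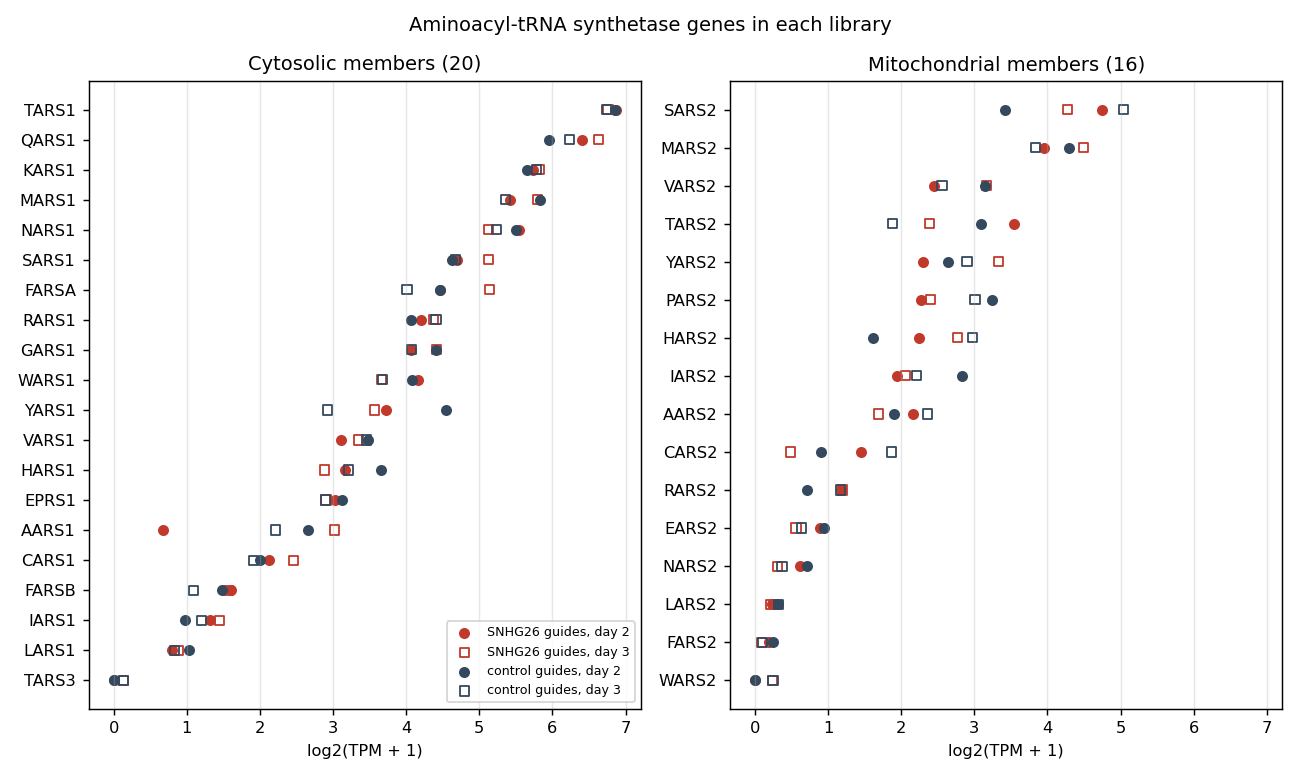
Level of each gene in each of the 4 libraries, on a log2(TPM + 1) axis, with 20 cytosolic genes on the left and 16 mitochondrial genes on the right, ordered by mean level; red marks SNHG26 guides, dark blue control guides, filled circles day 2 and open squares day 3. TARS1 leads at 106 to 116 TPM, while AARS1 has 1 library far below its others at 0.588 TPM.

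The other end of the range lay close to the detection limit. TARS3, a second cytosolic threonyl gene, was listed at 0 in both day 2 libraries and at 0.0954 and 0.0948 TPM on day 3. WARS2, the mitochondrial tryptophanyl gene, was listed at 0 on day 2 and at 0.179 and 0.185 TPM on day 3. At 3 reads, the limit that a count of 0 allows on day 2 was 0.309 and 0.340 TPM for TARS3 and 0.200 and 0.220 TPM for WARS2, with SNHG26 and control guides, so these genes were not detectable rather than absent. LARS1, the leucyl gene of the complex, reached only 0.736, 0.847, 1.03 and 0.779 TPM. In all, 36 of the 38 genes were above 0 in every library, 31 had a mean of at least 1 TPM, and 12 had at most 10 reads on average.

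Levels in TPM fell with genomic span. Across the 38 genes the correlation of log2 mean TPM with log2 genomic span was r = -0.63, and across the 17 mitochondrial genes it was -0.86. The upper bounds on reads, before division by span, gave r = -0.12 with span in both sets. These are descriptions over genes that share the libraries. MARS2, an intronless gene on 3027 bases, had 14.5, 21.6, 18.6 and 13.3 TPM from only 6, 10, 7 and 6 reads. The exact 95% Poisson intervals, which cover counting error only, ran from 5.30 to 31.5 TPM in the first of these libraries and from 4.89 to 28.98 TPM in the last. FARS2, spread over 568149 bases, stood at 0.141, 0.0640, 0.185 and 0.0763 TPM with at most 11.0, 5.57, 13.1 and 6.46 reads. MARS2 was thus far above FARS2 in TPM, although the upper bound of the FARS2 reads was the higher number in 3 of the 4 libraries.

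A second scale divided the highest possible number of reads by the spliced length of the GENCODE transcript with the longest coding sequence. On it TARS1 still led at 169 reads per spliced kb, and MARS1 had 98.0, KARS1 65.2 and GARS1 51.4. GARS1, the glycyl gene, has a long span of 53501 bases and ranked lower by TPM. QARS1, with a span of 9199 bases, had 36.8 reads per spliced kb. MARS2 came to 2.40 reads per spliced kb, below FARS2 at 5.34.

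Summed over genes, the cytosolic enzymes had 500, 533, 499 and 466 TPM and the mitochondrial enzymes 78.8, 81.6, 73.8 and 87.3 TPM. The ratio of the sums was 6.35, 6.53, 6.76 and 5.34, a mean of 6.25 ± 0.63 (SD, n = 4 libraries). TARS1, QARS1 and KARS1 made up 46.4% to 50.4% of the cytosolic sum, and SARS2 and MARS2 made up 38.3% to 51.8% of the mitochondrial sum. The ratio of the median genes was 5.56, 5.202, 7.41 and 4.40. On reads in place of TPM the ratio was 9.27, 10.6, 9.87 and 8.21, and without GARS1 and KARS1 the TPM ratio had a mean of 5.36. Between the arms the log2 ratio was 0.092 lower with SNHG26 guides on day 2 (a difference of -0.092) and 0.29 higher on day 3, so the direction differed between the days.

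Set against each other by amino acid, 18 pairs could be formed over the 17 mitochondrial genes, because EPRS1 serves glutamate and proline and the phenylalanyl enzyme of the cytosol has a pair of subunits. The cytosolic gene had the higher TPM in all 4 libraries for 14 pairs. For AARS1 with AARS2, SARS1 with SARS2 and EPRS1 with PARS2 it was higher in 2 of 4 libraries. For 1 pair, the isoleucyl genes, the mitochondrial gene was higher in all 4. Counted as reads per spliced kb the split was also 14, 3 and 1, but not with the same pairs. For AARS1 with AARS2, CARS1 with CARS2 and FARSB with FARS2 the cytosolic gene was then higher in 3 of 4 libraries. For SARS1 with SARS2 and EPRS1 with PARS2 it was higher in all 4. On both scales 12 pairs had the cytosolic gene higher throughout.

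The widest distances in TPM belonged to mitochondrial genes of long span. FARSA averaged 22.8 TPM against 0.117 TPM for FARS2, and WARS1 had 11.6 and 11.8 TPM on day 3, when WARS2 had 0.179 and 0.185 TPM. NARS1 averaged 40.1 TPM against 0.423 TPM for NARS2. Per spliced kb the ratios were 3.41 for FARSA to FARS2 and 12.2 for NARS1 to NARS2. No ratio is given for WARS2, at 0 on day 2. TARS1 exceeded TARS2, which averaged 6.26 TPM, 17.7 times in TPM and 26.6 times per spliced kb. RARS1 averaged 18.3 TPM and RARS2, its mitochondrial arginyl partner, 1.11 TPM, a ratio of 16.5 in TPM and of 5.95 per spliced kb. These pairs kept the cytosolic gene higher in every library on either scale.

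Other pairs lay closer. MARS1 averaged 48.1 TPM and MARS2 16.98 TPM, a ratio of 2.83 that became 40.8 per spliced kb. LARS1 averaged 0.849 TPM and LARS2 0.209 TPM. CARS1, the cysteinyl gene, averaged 3.40 TPM against 1.42 TPM for CARS2, and the tyrosyl genes YARS1 and YARS2 averaged 13.0 and 6.17 TPM. The histidyl genes HARS1 and HARS2 averaged 8.54 and 4.61 TPM, and the valyl genes VARS1 and VARS2 averaged 9.21 and 6.27 TPM. The alanyl genes AARS1 and AARS2 averaged 4.17 and 3.15 TPM, and the seryl genes SARS1 and SARS2 averaged 26.8 and 21.4 TPM. EPRS1 averaged 6.94 TPM, above EARS2 at 0.700 TPM and close to PARS2 at 5.89 TPM. Closeness in TPM did not always hold per spliced kb. There the ratio was 5.68 for EPRS1 to PARS2, 4.21 for HARS1 to HARS2 and 3.82 for AARS1 to AARS2, each wider than in TPM. Other pairs narrowed, LARS1 to LARS2 from 4.06 to 1.75 and CARS1 to CARS2 from 2.40 to 1.29. FARSB, the beta subunit of the phenylalanyl enzyme, averaged 1.74 TPM, well below its partner subunit FARSA, and had 6.46 reads per spliced kb against 18.2 for FARSA.

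The isoleucyl pair ran the other way. IARS2 (chr1:220094132-220148041) had 2.84, 3.15, 6.10 and 3.61 TPM, and IARS1 (chr9:92210207-92293854), a member of the complex, had 1.49, 1.72, 0.964 and 1.29 TPM. The 2 ranges did not overlap. Per spliced kb IARS2 had 8.21 reads and IARS1 3.50, and IARS2 was higher in all 4 libraries there too. IARS2 shares 388 bases with the processed pseudogene RPS15AP12 on the other strand, which was listed at 0 to 18.8 TPM.

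**Figure D2:**
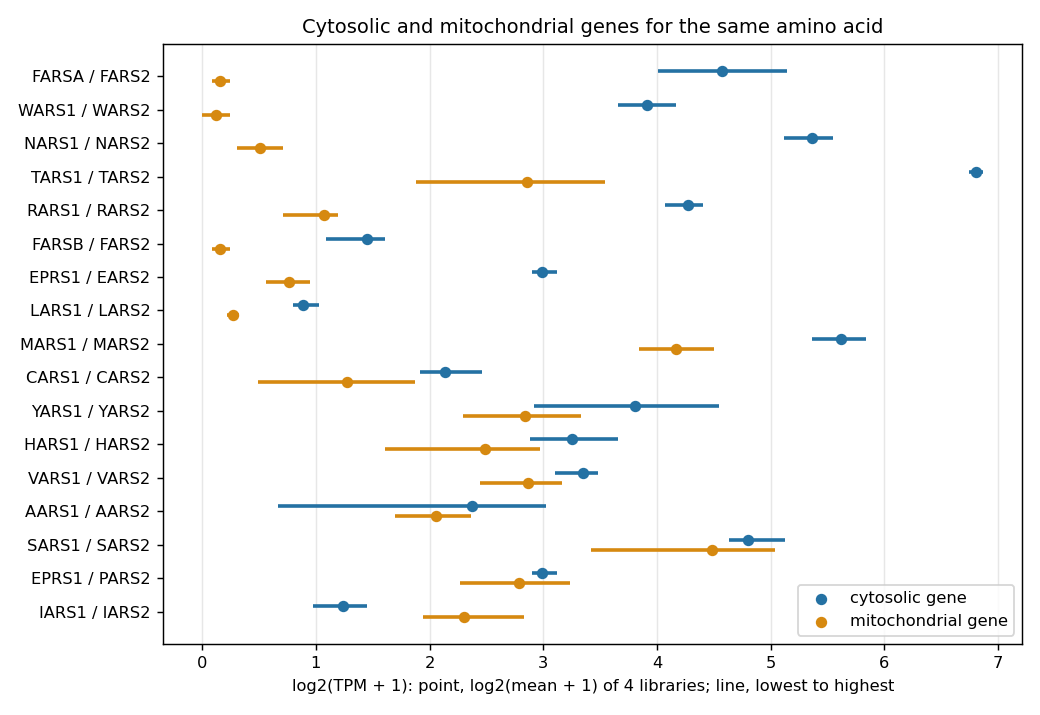
Cytosolic (blue) and mitochondrial (orange) genes for the same amino acid on a log2(TPM + 1) axis; points are means over the 4 libraries and lines run from the lowest to the highest library. The isoleucyl pair at the bottom, with IARS2 above IARS1, is the only pair plotted with the mitochondrial gene higher in all 4 libraries.

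Within the cytosolic set, the 8 genes of the multisynthetase complex, among them EPRS1, IARS1, LARS1, MARS1, QARS1, RARS1 and KARS1, had a median level of 18.7 TPM, and the 13 genes outside it had 13.0 TPM. The range inside the complex went from 0.849 TPM (LARS1) to 79.3 TPM (QARS1), and per spliced kb from 1.80 reads (LARS1) to 98.0 reads (MARS1). Of the scaffold genes, AIMP2 had 29.04, 31.0, 27.0 and 24.4 TPM and EEF1E1 had 33.1, 29.2, 34.7 and 21.5 TPM. AIMP1 had 6.87, 9.72, 8.62 and 6.57 TPM. The 19 class I genes had a median of 6.17 TPM and the 19 class II genes 6.26 TPM. Spread between the 4 libraries was a median coefficient of variation of 19.6% for the cytosolic genes and 37.5% for the mitochondrial genes, whose median number of reads was at most 8.07 against 75.9.

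No synthetase gene changed past the threshold with the SNHG26 guides. With limma on log2(TPM + 1), adjusted over the 8274 genes that averaged 1 TPM or more, 0 of the 31 synthetase genes tested passed an adjusted p of 0.05 (background 0%), and the smallest adjusted p among them was 0.935. At an unadjusted p under 0.05 the count was again 0, where 4.07% of all genes tested fell. The 31 changes had a median of 0.017 on the log2 scale, -0.012 with quantile normalization and -0.022 with median ratio scaling, beside 0.041 over all genes tested. Standard errors of single genes ran from 0.19 to 0.90 with a median of 0.38, and changes smaller than these were not detectable here. Larger changes could be missed too, since PARS2, at -0.79 with a standard error of 0.32, did not pass. The targeted gene SNHG26 was itself among the genes tested and was not called either. Over all 8274 genes the smallest adjusted p for the guides was 0.0917 with limma.

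The libraries of the 2 arms did not overlap for 11 of the 31 genes. CARS1, FARSA, FARSB, IARS1, QARS1, RARS2 and SARS1 were higher in both libraries with SNHG26 guides, 22.6% of those tested where the background was 16.1%. HARS1, IARS2, PARS2 and VARS1 were lower in both, 12.9% where the background was 13.2%. Of the 7 higher genes 6 were cytosolic, and of the 4 lower genes 2 were, where 19 of the 31 genes tested are cytosolic. None of these 11 passed the test.

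Among genes averaging 5 TPM or more, FARSA had the largest difference upward with the guides, a log2 change of 0.56 ± 0.38 (SE). It was 0.00070 on day 2 and 1.13 on day 3, so nearly all of the difference lay in one day. Leaving out single libraries moved it from 0.22, without the day 3 library of the SNHG26 guides, to 0.91, without their day 2 library. QARS1 had 0.43 ± 0.23, made of 0.45 on day 2 and 0.40 on day 3, so both days contributed alike. TARS2 (chr1:150487414-150507602), the mitochondrial threonyl gene, had 0.48 ± 0.66, with 0.46 and 0.50 on the 2 days. For TARS2 the direction turned to -0.10 without the day 2 library of the SNHG26 guides and to -0.12 without the day 3 control library, since its levels of 10.7, 4.21, 7.48 and 2.68 TPM separated the days first.

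In the other direction PARS2 (chr1:54756898-54764523), the mitochondrial prolyl gene, had 3.82 and 4.28 TPM with SNHG26 guides against 8.43 and 7.05 TPM with control guides. Its values are whole reads on its span, 4 and 5 against 8 and 8. The log2 change was -0.79 ± 0.32 (SE), with -0.97 on day 2 and -0.61 on day 3 (limma unadjusted p 0.068, adjusted p 0.935). The exact 95% Poisson intervals of the reads, 1.09 to 10.2 and 1.62 to 11.7 against 3.45 to 15.8 in each control library, overlapped. HARS1 (chr5:140673035-140691537) had 7.95 and 6.36 TPM against 11.6 and 8.26 TPM, a log2 change of -0.41 ± 0.34, which ran from -0.19 without the day 2 control library to -0.63 without the day 3 control library. VARS1 (chr6:31777518-31795752) had 7.60 and 9.15 TPM against 10.1 and 9.94 TPM, a log2 change of -0.24 ± 0.30, or -0.12 without the day 2 library of the SNHG26 guides.

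Among the other highest genes the guide change was 0.26 ± 0.28 for SARS1 and 0.28 ± 0.64 for SARS2. That of SARS1 was 0.043 without the day 3 library of the SNHG26 guides and 0.48 without their day 2 library. SARS2 was 1.32 higher on day 2 and 0.77 lower on day 3 (a log2 difference of -0.77), and leaving out the day 2 control library turned its change to -0.53. TARS1, KARS1, MARS1 and NARS1 had guide changes of 0.017, 0.062, 0.011 and -0.033, each smaller than its standard error of 0.19, 0.22, 0.30 and 0.28. With quantile normalization the changes of TARS1, KARS1 and MARS1 turned negative, and leaving out single libraries turned those of all 4 genes.

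Across the 31 genes, 10 were higher with SNHG26 guides on both days, 4 were lower on both days and 17 changed direction between the days, which is 32.3%, 12.9% and 54.8%. Over all 8274 genes tested the shares were 24.8%, 21.8% and 44.3%, the rest having no difference on one of the days. Whether the guide change differed from day 2 to day 3 was examined with limma on the crossed contrast, and 0 of the 31 genes passed an adjusted p of 0.05 (background 0.0967%). Each arm had a single library per day, so the guide and day differences themselves served as the error of this contrast. It therefore cannot set a differing guide change against a spread between replicates. SARS2 had an unadjusted p of 0.058 there (limma adjusted p 0.961). AARS1, the alanyl gene, was named after its values were seen. It had 0.588, 7.13, 5.31 and 3.65 TPM, so the day 2 library with SNHG26 guides was low, at no more than 3.04 reads where the others reached 20.5 to 41.2.

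**Figure D3:**
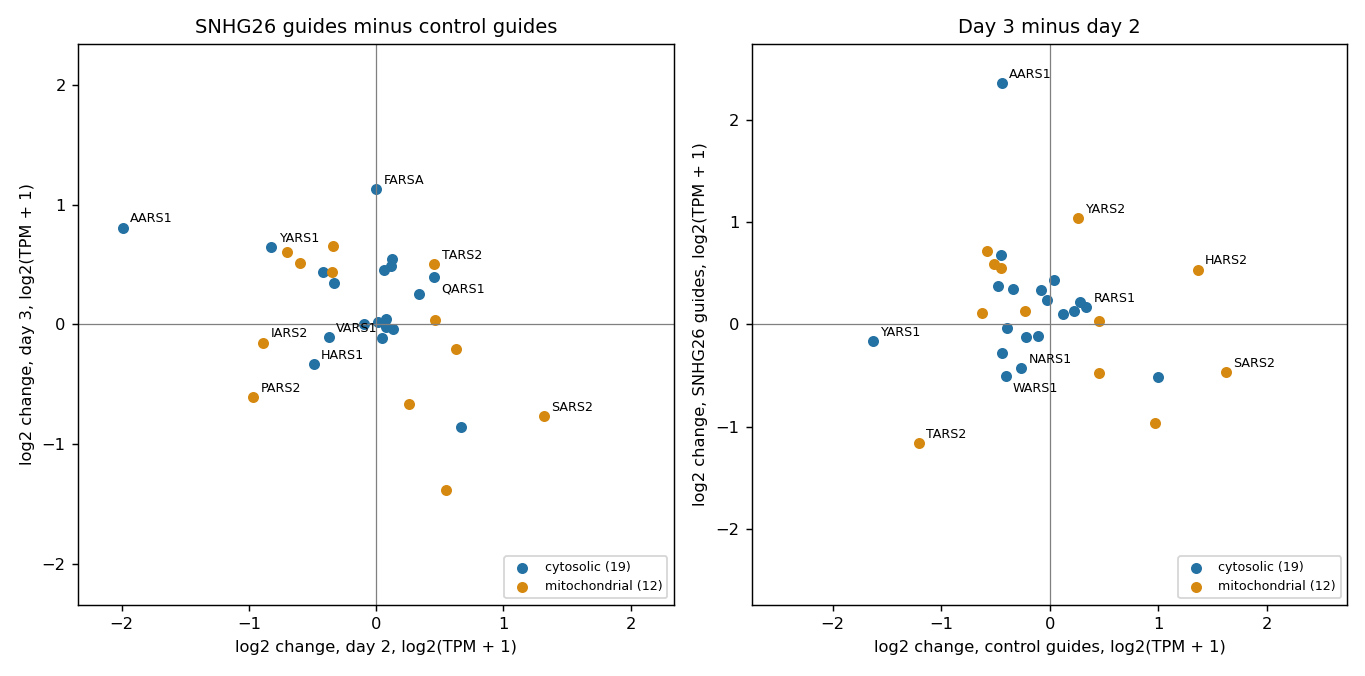
Log2 differences of the 31 genes tested, on log2(TPM + 1): left, SNHG26 guides minus control guides on day 2 (x) against day 3 (y); right, day 3 minus day 2 with control guides (x) against SNHG26 guides (y). In each panel both axes use all 4 libraries once; QARS1 and TARS2 lie in the upper right on the left, PARS2 and HARS1 in the lower left, and TARS2 lies in the lower left on the right.

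Between day 2 and day 3 of doxycycline, 0 of the 31 genes passed an adjusted p of 0.05 with limma (background 0.0363%), and TARS2 alone had an unadjusted p under 0.05, 3.23% of the genes tested where the background was 6.61%. TARS2 went from 10.7 to 4.21 TPM with SNHG26 guides and from 7.48 to 2.68 TPM with control guides, at most 29.5, 13.0, 18.8 and 8.05 reads. Its log2 difference was -1.18 ± 0.36 (SE), with -1.16 and -1.21 in the 2 arms (limma unadjusted p 0.031, adjusted p 0.661). The cytosolic partner TARS1 differed by -0.11 ± 0.15. YARS1 (chr1:32775237-32818031) had 12.2, 10.8, 22.4 and 6.57 TPM and a day difference of -0.89 ± 0.44, most of it in the control arm, and -0.48 without the day 2 control library. WARS1 (chr14:100333790-100376805), which charges tryptophan, had 16.9, 11.6, 15.9 and 11.8 TPM and a day difference of -0.46 ± 0.23.

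Upward, YARS2 (chr12:32727490-32755897) had 3.90, 9.08, 5.23 and 6.46 TPM and a day difference of 0.65 ± 0.33. RARS1 (chr5:168486451-168519301) had 17.4, 19.7, 15.8 and 20.2 TPM and 0.25 ± 0.22. SARS2 had 0.58 ± 0.59, made of -0.47 with SNHG26 guides and 1.62 with control guides, and its direction turned to -0.083 without the day 2 control library. The tyrosyl pair thus had its cytosolic gene lower and its mitochondrial gene higher on day 3 in both arms, though neither gene passed the test (limma adjusted p 0.760 for each).

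In all, the days did not overlap for 10 of the 31 genes. HARS2, KARS1, RARS1 and YARS2 were higher on day 3 in both arms, 12.9% of those tested where the background was 17.1%. EPRS1, NARS1, TARS1, TARS2, WARS1 and YARS1 were lower, 19.4% where the background was 18.4%. The median day difference was 0.048 over the 31 genes and 0.0071 over all genes tested, and leaving out the day 3 library with SNHG26 guides moved it to -0.12. Of the 7 genes below the level for testing, EARS2, NARS2 and FARS2 had both day 3 libraries under both day 2 libraries, and WARS2 and TARS3 had them above. The share over all genes below that level was not taken, so these counts say nothing particular to the synthetases. On day 3 WARS2 had at most 3.00 and 3.02 reads and TARS3 at most 1.04 and 1, with SNHG26 and control guides, near the limit given above. EARS2 had 0.844, 0.475, 0.930 and 0.551 TPM and NARS2 0.527, 0.236, 0.638 and 0.291 TPM.

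The histidyl genes lie head to head. By RefSeq the start sites of HARS1 and HARS2 are 85 bases apart on chromosome 5, on opposite strands, and the gene spans of the deposited table overlap by 108 bases. HARS2 had 3.71, 5.82, 2.05 and 6.85 TPM, from at most 2.01 to 8.03 reads, and HARS1 was higher than HARS2 in every library. HARS2 was higher on day 3 in both arms (0.95 ± 0.37), where HARS1 was lower (-0.36 ± 0.32). HARS2 also overlaps 626 bases of ZMAT2, a gene at 42.4 to 55.0 TPM on the same strand, so its few reads are uncertain.

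The promoters were searched for the letters of the C/EBP-ATF response element, the kind of site bound by ATF4 with its partners, which was chosen with the values known. RefSeq windows from 250 bases before to 50 after a start site (GRCh38.p14) were given for 30 of the 38 genes. The letters TGATGNAAN, on either strand, were found for 7 of 16 cytosolic genes and 1 of 14 mitochondrial genes. Counted by window, they lay in 8 of the 39 windows of the 30 genes (20.5%) and in 3.61% of all 35116 windows. They are printed because they divide the cytosolic genes into 2 sets whose values can be compared. Each stretch runs 5′ to 3′ on the strand of its gene, with the match in capitals, 10 bases on either side and the position of the match's first base counted from the start site, the first transcribed base being 1.
AARS1, chr16:70289676-70289704, minus strand, position -188: ttttctcgcaGTTGCATCAgccaagttag
CARS1, chr11:3057408-3057436, minus strand, position -3: cggggcggcgGTTGCATCAgattctagga
GARS1, chr7:30594834-30594862, plus strand, position -34: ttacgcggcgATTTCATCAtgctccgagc
IARS1, chr9:92293693-92293721, minus strand, position -14: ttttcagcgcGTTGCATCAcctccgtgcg
MARS1, chr12:57488053-57488081, plus strand, position -5: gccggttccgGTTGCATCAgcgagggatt
NARS1, chr18:57621804-57621832, minus strand, position 15: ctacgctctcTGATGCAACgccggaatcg
TARS1, chr5:33440956-33440984, plus strand, position 2: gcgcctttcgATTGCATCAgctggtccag
YARS2, chr12:32756076-32756104, minus strand, position -197: tccacactgcTGATGGAAAaattaagttt

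In AARS1, CARS1, IARS1, MARS1 and NARS1 the 9 letters of the match were the same, read on one strand or the other. The 7 cytosolic genes with the letters had a median level of 18.0 TPM (1.37 to 111 TPM), and the 9 cytosolic genes with a window and without them had 18.3 TPM (1.74 to 79.3 TPM). Their median guide changes were 0.011 and 0.062 and their median day differences 0.0033 and 0.11. A match describes letters only, and its absence from a window says nothing of the factor. Other letters searched on both strands were CACGTG (4 of 30 genes), TGACGTCA (0 of 30), TGACGCA (3 of 30) and CCGGAAGT (8 of 30). In that order they lay in 12.8%, 0%, 12.8% and 23.1% of the 39 windows of these genes. Of all windows 7.26%, 1.85%, 2.47% and 4.14% held them. CCGGAAGT lay in the windows of both HARS1 and HARS2, where the 2 matches are shared. In EARS2 a match of TGACGCA overlapped one of CCGGAAGT.

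Genes that work beside the synthetases were described by lists. Of the 29 amino acid response genes 22 were tested, with a median guide change of 0.068 (13 higher, 9 lower, 0 past an adjusted p of 0.05) and a median day difference of -0.16 (7 higher, 15 lower, 0 past the threshold). Over all genes tested 53.3% were higher with SNHG26 guides and 50.7% were higher on day 3. DDIT4, an inhibitor of mTORC1, had the largest day difference of the list, 101, 410, 126 and 616 TPM (log2 2.15 ± 0.27, limma unadjusted p 0.0015, adjusted p 0.187). ATF4 had 99.5, 101, 101 and 87.5 TPM. DDIT3, which encodes the stress factor CHOP and overlaps 982 bases of MARS1 on the other strand, had 9.29, 6.67, 14.4 and 3.42 TPM. The 3 scaffold genes had a median guide change of 0.18, the 5 mitochondrial aminoacylation helpers tested 0.27, and the 20 genes of tRNA trimming, splicing and export tested 0.00023. None of these passed an adjusted p of 0.05 with limma for either comparison. The largest differences in the last list were those of PRORP, the protein-only enzyme that trims mitochondrial tRNA, between the days and of TSEN34, a subunit of the tRNA splicing endonuclease, with the guides. PRORP had 7.61, 0.257, 8.39 and 0.175 TPM (log2 -2.89 ± 0.35, limma unadjusted p 0.0013, adjusted p 0.175). TSEN34 had 0, 2.03, 7.96 and 6.45 TPM (log2 -2.23 ± 0.67, limma unadjusted p 0.028, adjusted p 0.935). DDIT4, PRORP and TSEN34 were named after their values were seen. Of the 4 proofreading factors 2 were tested. AARSD1, an editing protein that clears mischarged alanine tRNA, had 34.1, 34.7, 24.6 and 22.5 TPM, with both libraries of the SNHG26 guides above both controls and a log2 change of 0.53 ± 0.24 (limma adjusted p 0.935).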

How the data were processed

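Poly(A) RNA was primed with oligo-dT, strand-switched and amplified for 14 cycles of PCR before nanopore sequencing, per the labels' protocols, with no molecular identifiers described. The authors deposited 1 table of gene TPM with 1 column per library. The submitters' processing notes name minimap2 2.24-r1122 and GRCh38. The counting tool, the strand setting, the annotation release and the filters are not given in the sources used here. The worth of 1 read was recovered for each library as the commonest product of TPM and span, and it gave whole reads (within 0.0001 read) in every library for 4 of the 38 genes. For the others, TPM times span over that worth is an upper bound on reads.

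Differences are on the log2(TPM + 1) scale and so come out too small for low genes. Testing, limited to genes averaging 1 TPM or more, used limma 3.58.1 (R 4.3.3; mean-variance trend, no block), with Benjamini-Hochberg adjustment over 8274 genes and a threshold of 0.05. The fit was tested on simulated data at these depths, with large changes planted in genes that had more reads than most synthetase genes. It recovered the sign of nearly all of these changes but called only a minority of them. Unchanged genes made up a large part of its calls. In such simulated data a missing call is thus weak evidence that a gene did not differ, and a call is weak evidence that it did. The simulation held no day difference within an arm and the same dispersion for every gene. How often calls are missed or false in the real libraries is therefore not known. Libraries of the same day were given the same replicate number, which stands for the day alone. Their deviations from the arm means had a correlation of only 0.046 across the 8274 genes. Spliced lengths came from GENCODE release 29 (38 of 38 genes matched by ID) and promoters from RefSeq. Described in full are the 8 genes with the highest mean, the 3 largest changes each way per comparison among genes averaging 5 TPM or more, and, by level, the pairs. The genes and lists were chosen with earlier results of these data known, and the motifs and the crossed contrast after the values were seen. Alternatives were other pseudocounts (0.1 and 5), filters, scalings and variance settings, the replicate block (the other of day and guide arm) and leaving out each library. In 17 of the 38 genes the span overlaps a listed gene on the other strand. The name PRORSD1P, listed more than once, was left out of the proofreading list. Values of 2 single genes are counted in the sums but are not reported here by name.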

Additional observations from a re-analysis of the deposited data

How the results depend on the processing

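No synthetase gene passed the threshold, for the guides or for the days, under any alternative run (16 genes followed one by one, smallest adjusted p 0.673 for the guides and 0.457 for the days, both with limma). In fits without 1 library the lone library of an arm was assumed to vary like the others. The replicate block was the day in the guide fit and the guide arm in the day fit, not a separate set of replicates. It left the count of genes past the threshold at 0 for the guides and for the days. It changed no other call, also with a mean of at least 20 reads, chosen after seeing the data. The median guide change became -0.012 with quantile normalization and -0.022 with median ratio scaling. Leaving out single libraries moved it from -0.038 to 0.13 and the median day difference from -0.12 to 0.17. The mean ratio of cytosolic to mitochondrial sums became 9.47 on reads and 5.36 without GARS1 and KARS1. Guide changes turned with quantile normalization for TARS1 (-0.026), KARS1 (-0.030) and MARS1 (-0.054), and with median ratio scaling for TARS1 (-0.022), MARS1 (-0.028) and WARS1 (-0.0054). Leaving out single libraries, guide changes ran from -0.039 to 0.073 for TARS1, -0.0011 to 0.12 for KARS1, -0.23 to 0.25 for MARS1, -0.25 to 0.18 for NARS1, -0.53 to 1.09 for SARS2, -0.12 to 1.08 for TARS2, -0.48 to 0.56 for YARS2, -0.12 to 0.21 for RARS1, -0.90 to 0.72 for YARS1 and -0.22 to 0.28 for WARS1. Day differences ran from -0.27 to 0.17 for MARS1, -0.45 to 0.68 for FARSA, -0.083 to 1.24 for SARS2, -0.53 to 0.43 for PARS2 and -0.079 to 0.29 for VARS1. The cause was not tested. With a pseudocount of 5 the guide change was -0.49 for PARS2 and 0.29 for TARS2, and the day difference was -0.73 for TARS2 and 0.41 for YARS2. The median mitochondrial gene had at most 8.07 reads, and how far depth sets its spread was not tested.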
